A study of Mus musculus with 67 samples.

Results

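The transcriptional response of naive B cells to anti-Btla in the presence of interferon beta (IFNb) was measured in 6 of the 67 deposited samples, namely the 3 libraries of B cells stimulated through the antigen receptor with anti-Btla and IFNb and the 3 stimulated with control Ig (CtrlIg) and IFNb. The samples were taken by their labels alone, and no measured value entered the choice. The series measured RNA in B cells and CD4+ T cells of C57BL/6 mice, either naive, which here means not immunized, or given a peptide of myelin that brings on experimental autoimmune encephalomyelitis (EAE), in which the immune system attacks the brain and spinal cord. B cells were enriched from spleen and lymph nodes by removing other cells with antibodies, so what was sequenced was a bulk population. All naive arms came from this strain, with no allele altered. The naive B cell set had 5 arms of 3 libraries. In the first the cells were left unstimulated, and in the other 4 they were kept for 18 h with latex beads that carried antibodies to IgM and IgG together with either CtrlIg or anti-Btla, with or without soluble IFNb. The agent compared was therefore the second antibody on the bead, while anti-IgM/G and IFNb were common to both arms. Clone 6A6, the anti-Btla antibody, covers the surface of Btla that binds its ligand Hvem and also triggers the inhibitory signal of the receptor, so loss of ligand binding and gain of signal cannot be told apart in these arms.

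Btla is a receptor of the immunoglobulin superfamily on B and T cells that, once engaged, recruits the phosphatases Shp1 and Shp2 (genes Ptpn6 and Ptpn11) to dampen antigen receptor signaling. In B cells, antigen receptor signaling switches on early response transcription factors and Myc, and the cell then enlarges by raising ribosome production, amino acid uptake and synthesis, mitochondrial respiration and glycolysis, while genes of the resting state are switched off. IFNb signals through Ifnar1 and Ifnar2 to a well-known set of antiviral interferon-stimulated genes, and the comparison asks what anti-Btla did to stimulated B cells while this cytokine was present.

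The 6 libraries held 13.6 to 36.9 M counts, and the CtrlIg with IFNb library of replicate 3 was the shallowest of the 15 naive B cell libraries (13.6 to 42.3 M). Mitochondrial genes took 4.01 to 4.29% of the counts with CtrlIg and IFNb and 4.52 to 5.03% with anti-Btla and IFNb, and the part of this shift in the results was not tested. Per the names under which the libraries were deposited, the replicate 1 pair ran in sequencing lanes 1 and 2, the replicate 2 pair in lanes 2 and 3, and both libraries of the replicate 3 pair in lane 4. Of the B cell markers, the antigen receptor signaling chains Cd79a and Cd79b were at 412 to 515 and 620.3 to 735 CPM (counts scaled to a fixed library total) with CtrlIg and IFNb and at 470.4 to 579 and 821 to 1024 CPM with anti-Btla and IFNb, and Ms4a1, which encodes CD20, was at 1118 to 1182 and 1254 to 1566 CPM. Marker sets of other cells were low, with sums of 60.8 to 61.7 and 70.3 to 82.5 CPM for 11 T cell genes, 157 to 227 and 115 to 163 CPM for 11 myeloid genes, 23.1 to 25.7 and 27.6 to 31.1 CPM for 6 dendritic cell genes, 5.75 to 8.1 and 7.98 to 10.3 CPM for 5 NK cell genes, and 4.17 to 4.87 and 4.78 to 5.79 CPM for 8 erythroid and platelet genes. From 1 to 3 of the 11 myeloid markers had no count in each of the 6 libraries, and most of that sum was Mpeg1, at 177, 138 and 121 CPM with CtrlIg and IFNb against 101, 95.8 and 76.8 CPM with anti-Btla and IFNb. The sum thus follows Mpeg1 and not the set. Of the 8 myeloid markers tested, 5, 5 and 6 were higher with anti-Btla in the replicate 1, 2 and 3 pairs, with a median log2 change of 0.19. By the edgeR test used throughout, 2 of 11 T cell, 1 of 8 myeloid and 3 of 5 dendritic cell markers tested were higher with anti-Btla, as were Cd79b and Ms4a1, 1 myeloid marker was lower, and no NK or erythroid marker passed, where 11.9% of all genes were higher. The myeloid marker called higher, Lyz2, lost its call without the replicate block (log2 change 0.72, adjusted p = 0.5 in edgeR). The dendritic cell count was 1 without the CtrlIg with IFNb library of replicate 1, the anti-Btla with IFNb library of replicate 2 or 3, or replicate 2 or 3, and 0 without the replicate block. The T cell count was 1 without the replicate block, without the CtrlIg with IFNb library of replicate 1 or 3, the anti-Btla with IFNb library of replicate 1, or replicate 1 or 3. Cd3e, a defining T cell gene, stayed at or below 1.11 CPM. Cd2, an adhesion gene also used by B cells, rose from 32.1, 29.4 and 28.9 to 50.2, 43.2 and 44.8 CPM. The part of these markers in the results was not tested, and in bulk RNA fewer cells of a type cannot be told apart from less RNA per cell.

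Anti-Btla with IFNb altered a large share of the measured transcriptome by modest steps, with growth and metabolism genes among those lower and resting lymphocyte genes among those higher. Of 16635 genes tested, 4900 (29.5%) were called at an adjusted p below 0.05 in edgeR, 1983 (11.9%) higher and 2917 (17.5%) lower with anti-Btla. The median size of the change among called genes was 0.41 on the log2 scale, and 172 higher and 148 lower genes passed a 2-fold change. At an unadjusted p under 0.05 there were 6460 genes. The libraries of the 2 arms did not overlap for 4495 of the 4900 called genes, against 6284 of all 16635 tested. In all 3 pairs of libraries with the same number 4840 called genes had one direction. The calls rest on these same libraries, so these counts describe the called genes and are no further support. The count was 2517 when the replicate 3 libraries of every arm were left out, 4222 without replicate 1 and 3888 without replicate 2. All changes are relative to the library total after scaling by the trimmed mean of M-values (TMM), with a median of 0.002 over all genes tested.

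Cytokine genes were prominent among the decreases. Il6, which encodes the B cell growth and differentiation cytokine interleukin-6, stood at 38.2, 49.3 and 39.6 CPM in replicates 1, 2 and 3 with CtrlIg and IFNb and at 9.28, 15.6 and 8.91 CPM with anti-Btla and IFNb. Every anti-Btla library lay below every CtrlIg library, and the log2 change was −1.93 ± 0.12 (SE, n = 3 per arm, adjusted p = 2.92e-08 in edgeR), the largest decrease among well-expressed genes by the naming rule. Unstimulated cells held a mean of 26.7 CPM of Il6. Spp1, the secreted phosphoprotein osteopontin, went from 19.4, 13.9 and 14.4 to 3.61, 3.17 and 1.92 CPM (log2 change −2.47 ± 0.17, adjusted p = 1.07e-07). The mean of Spp1 over the 6 libraries fell short of 10 CPM, which kept it out of the ranking of largest changes. Ccl22, a chemokine that attracts T cells through Ccr4, was 27.4, 21.3 and 20.1 CPM with CtrlIg and 13.3, 10 and 7.48 CPM with anti-Btla (−1.17 ± 0.10). Again no anti-Btla library reached the lowest CtrlIg library. Ccl3 (−0.79 ± 0.11), the macrophage growth factor Csf1 (−1.06) and the angiogenic factor Vegfa (−0.82 ± 0.09) fell as well. Ltb moved the other way. This gene, whose product forms the membrane lymphotoxin that organizes lymphoid tissue, rose from 8.0, 8.11 and 6.36 to 14.9, 14.9 and 15.4 CPM (1.01 ± 0.15, adjusted p = 0.000135). Of 33 listed cytokine and chemokine genes 28 passed the filter on low counts, 2 were higher (7.14%) and 12 lower (42.9%), and their median log2 change was −0.32. Among all genes tested the shares were 11.9% and 17.5%. Csf2, Cxcl9, Il27, Lif and Tnfsf14 were too low to test, and the partner of Ltb, Lta, had a log2 change of 0.28 ± 0.31 at 0.748 to 1.56 CPM (adjusted p = 0.557).

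The region just before the start of Il6 is shown because this gene led the decreases and is a textbook target of NF-kB. These are the 250 bases upstream of the RefSeq start of Il6 (GRCm38.p6, chr5:30012864-30013113, plus strand), printed 5′ to 3′, with a form of the NF-kB motif (the letters GGGA, any base, then TTTCC) in capitals.
Il6: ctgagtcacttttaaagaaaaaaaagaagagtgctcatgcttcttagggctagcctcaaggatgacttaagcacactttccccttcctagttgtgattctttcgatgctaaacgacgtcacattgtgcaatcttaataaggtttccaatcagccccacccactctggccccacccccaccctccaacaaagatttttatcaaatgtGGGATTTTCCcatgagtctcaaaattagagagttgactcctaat
The match began at position -44 from the start. It was searched on both strands, and 0.356% of 32851 promoter windows of this length in the mouse RefSeq tables held it. Among genes tested, 0.325% of the windows of called lower genes, 0.418% of called higher genes and 0.418% of genes not called held this motif. A match is a description of letters and not of a bound site.

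**Figure D1:**
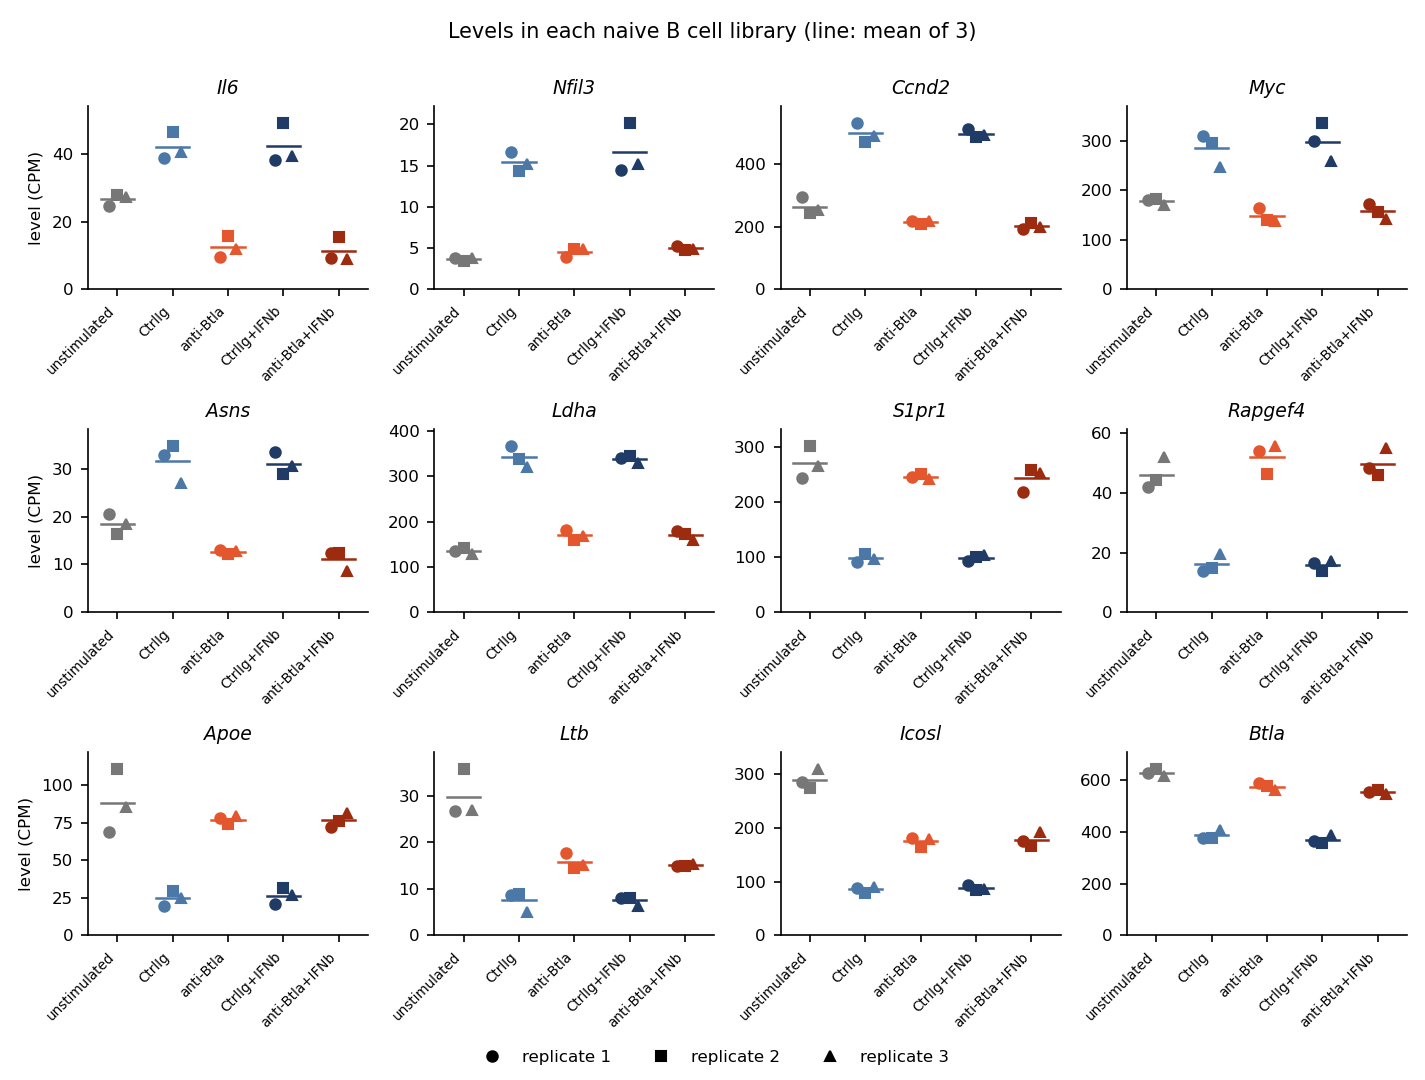
CPM (y axis, linear, from 0) of 12 genes in the 5 naive B cell arms (x axis), where each point is a library, its shape gives the replicate number and the line is the mean of 3. Il6, Nfil3, Ccnd2, Myc, Asns and Ldha are lower, and S1pr1, Rapgef4, Apoe, Ltb, Icosl and Btla higher, in the 3 anti-Btla with IFNb libraries than in the 3 CtrlIg with IFNb libraries, with no overlap for any of the 12 genes (Il6 8.91 to 15.6 against 38.2 to 49.3 CPM).

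Early response genes of the antigen receptor were reduced without being silenced. The listed genes summed to 1646, 1746 and 1573 CPM with CtrlIg and IFNb. With anti-Btla and IFNb the sums were 1236, 1260 and 1212 CPM, below those of the unstimulated libraries (1296, 1373 and 1321 CPM), though single genes differed in this. Egr2, a zinc finger factor that follows antigen receptor and calcium signals, was 45, 49.7 and 45.4 CPM with CtrlIg and IFNb and 21.4, 20.3 and 19.3 CPM with anti-Btla and IFNb (−1.20 ± 0.08, adjusted p = 5.31e-08), against a mean of 8.03 CPM in unstimulated cells. Its relatives Egr1 (103.0, 110.4 and 87.5 to 47.9, 45.3 and 46.7 CPM, −1.10 ± 0.09) and Egr3 (229.8, 205.0 and 218.0 to 120.4, 115.0 and 124.0 CPM, −0.86 ± 0.05) fell too. In all 3 Egr genes the arms were well apart and the libraries of an arm close together. The orphan nuclear receptors Nr4a1 (31.2, 32.9 and 30.3 to 16.7, 14.6 and 13.3 CPM, −1.09) and Nr4a3 (33.6, 35.0 and 34.1 to 16.3, 13.8 and 13.9 CPM, −1.23 ± 0.10), often read as reporters of antigen receptor signal strength, were lower. Nfil3, a basic leucine zipper factor, came next after Il6 in size of decrease among genes of at least 10 CPM, from 14.5, 20.2 and 15.2 to 5.3, 4.74 and 4.87 CPM (−1.74 ± 0.14, adjusted p = 3.37e-07). Irf4, which directs plasma cell and germinal center fate, fell by a small step from 524, 571 and 510.3 to 422, 482 and 471 CPM (−0.22). Cd69, an early activation marker, was 126, 111 and 114 CPM against 123, 123 and 104 CPM and was not called (−0.01 ± 0.08, adjusted p = 0.964). Of 30 tested genes on this list, 1 was higher and 15 lower, with a median of −0.42 (the gene called higher kept its call in 2 of the 15 alternatives) and per-pair medians of −0.31, −0.39 and −0.54, the last being the pair from a single lane.

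Myc fell while its partners moved little. Myc, the factor that drives cell growth, was 300.3, 337 and 259.5 CPM with CtrlIg and IFNb and 173, 157 and 143 CPM with anti-Btla and IFNb (−0.92 ± 0.07, adjusted p = 1.54e-07), and unstimulated cells held 178 CPM. The highest anti-Btla library was thus below the lowest CtrlIg library by a wide margin. Over all genes tested 11.9% were higher and 17.5% lower. Of 12 tested genes of the Myc, Max and Mxd network 2 were higher (16.7%) and 2 lower (16.7%), with a median of 0.11. Besides Myc these were Max (−0.19), the partner through which Myc binds DNA, and, in the other direction, Mlxip (0.15) and Mycn (0.85, below 2 CPM). These 3 calls were marginal. Without replicate 3 the adjusted p in edgeR was 0.0575 for Max, 0.305 for Mlxip and 0.291 for Mycn. Without replicate 1 it was 0.298, 0.103 and 0.0633. It was 0.0911, 0.107 and 0.0694 with only the arms compared, where no library of the 2 arms was left out. The direction of Max was also turned (0.15) by correcting for effective transcript length. The Myc antagonists Mxd1 (0.17), Mxd4 (0.18) and Mga (0.10) were not called.

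Genes of ribosome assembly, which Myc is known to activate, fell almost without exception. Of 53 such genes tested 52 were lower and none higher, and the median was −0.55, against 0.002 for all genes tested. In the same-numbered pairs 52, 53 and 53 of the 53 genes were lower. Npm1, nucleophosmin of the nucleolus, was 3224, 3246 and 3016 CPM with CtrlIg and IFNb and 1800, 2079 and 1762 CPM with anti-Btla and IFNb (−0.75 ± 0.06, adjusted p = 2.59e-07). Ncl, nucleolin, was 2388, 2761 and 2467 against 1657, 1474 and 1265 CPM (−0.80 ± 0.06). Neither gene overlapped between arms, and both had unstimulated means (1438 and 1432 CPM) below every CtrlIg library. Nop56 of the box C/D snoRNP (−0.75 ± 0.05), the pseudouridine synthase Dkc1 (−0.73 ± 0.06), the nucleolar chaperone Nolc1 (−0.72 ± 0.06) and the RNA helicase Ddx21 (−0.68 ± 0.05) were close to these values. Protein folding factors followed the same course. Of 21 chaperone genes 18 were lower and none higher, with a median of −0.73. The mitochondrial chaperonin Hspd1 fell from 847, 927 and 870.4 to 459.8, 496 and 404 CPM (−0.96 ± 0.06, adjusted p = 1.79e-08) and its co-chaperonin Hspe1 from 184, 198 and 170 to 112, 109 and 91.2 CPM (−0.83 ± 0.08). Cytosolic Hsp90ab1 (−0.81 ± 0.04), Hsp90aa1 (−0.78 ± 0.06) and Hspa8 (−0.74 ± 0.05) fell with them, as did all 8 subunits of the chaperonin TRiC that were tested, from −0.41 ± 0.07 for Cct4 to −0.80 ± 0.05 for Cct6a. Dnajb1 (−0.23 ± 0.09, adjusted p = 0.0599) and the near-identical, scarcely expressed Hspa1a and Hspa1b were not called.

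Purine and pyrimidine synthesis genes were lower in every pair for all 20 genes tested, and 17 of them passed the test, with a median of −0.62. Gart, an enzyme of the purine ring pathway, was 73.2, 82.9 and 72.7 CPM with CtrlIg and IFNb and 38.4, 45.9 and 44.7 CPM with anti-Btla and IFNb (−0.83 ± 0.08, adjusted p = 1.16e-06). Cad, which carries out the first steps of pyrimidine synthesis, was 114, 135 and 112 against 72.4, 68.4 and 69.6 CPM (−0.78 ± 0.07), and its call was lost with effective length offsets (−0.50, adjusted p = 0.0731). The CTP synthase Ctps (−0.82 ± 0.06), the thymidylate synthase Tyms (−0.83 ± 0.09) and Impdh2 of guanine nucleotide synthesis (−0.63 ± 0.06) fell by like amounts. Dhodh (−0.18 ± 0.08), Impdh1 (−0.41 ± 0.16) and Prps2 (−0.12 ± 0.06) were those not called. The Myc motif CACGTG, an E-box, stood in 6 of 22 promoter windows of this list (27.3%) and in 4 of 55 windows of the ribosome list (7.27%), where 47 of its 53 genes had a window. It was in 6.02% of all windows, in 9.97% of those of called lower genes, 8.25% of called higher genes and 6.92% of genes not called.

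The amino acid program, which is under the control of the stress factor Atf4, held several of the largest decreases. Of 41 tested genes of amino acid and one-carbon metabolism, 37 were lower and 1 higher, with a median of −0.64 and per-pair medians of −0.57, −0.71 and −0.68. Asns, asparagine synthetase, was 33.5, 28.9 and 30.5 CPM with CtrlIg and IFNb and 12.4, 12.5 and 8.67 CPM with anti-Btla and IFNb (−1.47 ± 0.12, adjusted p = 3.47e-07). Chac1, which degrades glutathione, went from 19.2, 19.7 and 16.8 to 7.18, 8.42 and 6.77 CPM (−1.32 ± 0.11). Slc7a3, a transporter of cationic amino acids, went from 18.9, 27.3 and 23.3 to 5.95, 8.74 and 6.48 CPM (−1.71 ± 0.13). In each of these genes the highest anti-Btla library held less than the lowest CtrlIg library. Psat1 of serine synthesis (261, 279.9 and 249 to 115, 137 and 116 CPM, −1.11 ± 0.05, adjusted p = 6.14e-09) and Bcat1 of branched-chain amino acid turnover (93.8, 99.4 and 87.8 to 32.6, 43.9 and 39.1 CPM, −1.29) were among the more abundant members. Atf5, a related transcription factor, fell from 20.1, 17.7 and 23 to 11.8, 5.98 and 7.64 CPM (−1.29), although it overlaps Il4i1 and Nup62 on the opposite strand, whose reads cannot be told apart from its own with certainty. Enzymes that charge tRNAs with amino acids were among the surest decreases, with Gars for glycine (224, 256 and 232 to 116, 148 and 128 CPM, −0.87 ± 0.05, adjusted p = 1.75e-08), Eprs (−0.76 ± 0.05), Nars (−0.71 ± 0.05) and Iars (−0.63 ± 0.05).

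The promoters of Asns, Chac1 and Gars are shown because their genes moved together and hold the letters to which Atf4 binds. The motif searched was TGATGNAA (the CARE element), on both strands, in the 250 bases before each RefSeq start (GRCm38.p6). Capitals mark the match, and each sequence is printed 5′ to 3′ on the strand of its gene, at chr6:7693210-7693459 (minus strand) for Asns, chr2:119350992-119351241 (plus strand) for Chac1 and chr6:55037751-55038000 (plus strand) for Gars.
Asns: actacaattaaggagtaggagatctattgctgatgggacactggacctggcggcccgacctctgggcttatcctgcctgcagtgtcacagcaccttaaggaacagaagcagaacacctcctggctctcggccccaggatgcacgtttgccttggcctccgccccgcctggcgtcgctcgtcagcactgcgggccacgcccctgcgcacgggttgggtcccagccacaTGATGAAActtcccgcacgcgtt
Chac1: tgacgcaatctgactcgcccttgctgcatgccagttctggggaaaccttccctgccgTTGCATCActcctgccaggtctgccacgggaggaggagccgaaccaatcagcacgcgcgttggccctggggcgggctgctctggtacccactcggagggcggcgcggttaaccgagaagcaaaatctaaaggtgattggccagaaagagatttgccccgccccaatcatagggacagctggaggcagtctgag
Gars: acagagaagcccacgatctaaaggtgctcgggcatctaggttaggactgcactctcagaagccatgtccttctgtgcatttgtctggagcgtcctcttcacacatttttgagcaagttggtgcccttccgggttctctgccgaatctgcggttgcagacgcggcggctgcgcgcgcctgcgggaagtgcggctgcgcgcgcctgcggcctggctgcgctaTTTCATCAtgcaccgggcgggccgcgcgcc
The match began at position -23 in Asns, -193 in Chac1 and -30 in Gars. Of 34 windows for the 31 listed genes found in the tables, 8 (23.5%) held the motif, against 3.45% of 32851 windows. They belonged to Asns, Chac1, Gars, Aars, Tars, Pycr1, Got1 and Slc7a11, which are named here for their windows. Aars, Tars, Pycr1 and Got1 were lower too, by −0.62 ± 0.05, −0.50 ± 0.05, −0.98 ± 0.10 and −0.67 ± 0.07, while the cystine transporter Slc7a11 was not called (0.05 ± 0.10, adjusted p = 0.762). Over the genes tested, the motif was no more common in windows of called lower genes (2.35%) than in those of genes not called (2.68%) or called higher (1.93%). None of these motifs contains another.

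**Figure D2:**
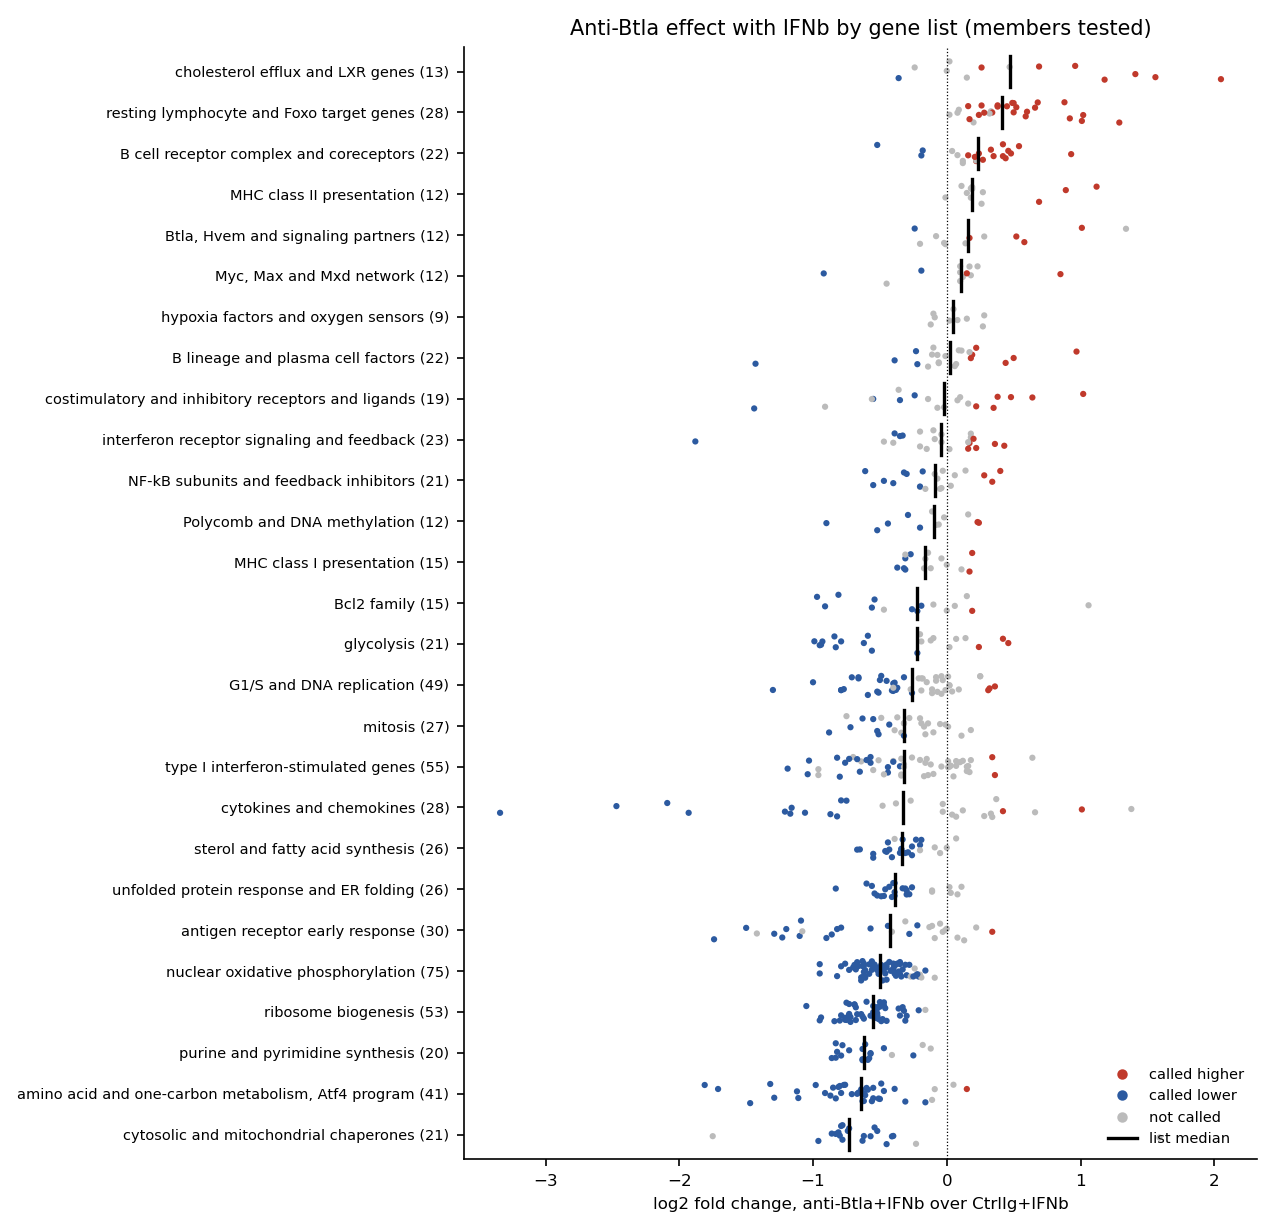
The log2 change with anti-Btla and IFNb against CtrlIg and IFNb (x axis) of each tested member (point) of 27 gene lists (y axis), coloured by whether it was called higher, called lower or not called. Black bars are list medians and the dotted line is the median of all genes tested (0.002), with the ribosome biogenesis (−0.55) and amino acid (−0.64) lists to the left of it and the resting lymphocyte list (0.42) to the right.

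Energy metabolism genes fell in oxidative phosphorylation and, in part, in glycolysis. Among 75 nuclear genes of oxidative phosphorylation 70 were lower and none higher, with a median of −0.50, and 73, 75 and 75 of them were lower in the 3 pairs. Without replicate 3, 41 were called lower. Atp5b, the catalytic subunit of ATP synthase, was 1014, 1234 and 972 CPM with CtrlIg and IFNb and 448, 645 and 577 CPM with anti-Btla and IFNb (−0.95 ± 0.09), and Uqcrq of complex III was 44.4, 59.5 and 45.3 against 26.6, 27.8 and 22.4 CPM (−0.95 ± 0.11, adjusted p = 6.25e-06). The arms of both genes were apart. Cox5a of complex IV (−0.76) and the cytochrome c1 gene Cyc1 (−0.63 ± 0.06) were lower by less. In glycolysis 11 of 21 tested genes were lower and 3 higher (14.3%, against 11.9% of all genes), with a median of −0.22. The higher count was 1 without the CtrlIg with IFNb library of replicate 1, the anti-Btla with IFNb library of replicate 3, replicate 3 or the replicate block or with only the arms compared, 2 without any other library or replicate, and 0 with effective length offsets. Ldha, which turns pyruvate into lactate, fell from 341, 345 and 328 to 179.6, 173 and 159 CPM (−0.99 ± 0.05, adjusted p = 1.25e-08), with an unstimulated mean of 135 CPM. Hexokinase Hk2 fell from 38.2, 39.2 and 38.7 to 19.4, 22.5 and 18.4 CPM (−0.95 ± 0.08), and Gapdh (−0.93), Pgk1 (−0.84), Pgam1 (−0.83), Pkm (−0.79) and the lactate exporter Slc16a1 (−0.94) were lower too. Pdk1, which holds pyruvate back from the mitochondrion, rose (0.42), a call lost with effective length offsets (0.28, adjusted p = 0.0981). The glucose transporter Slc2a1 (−0.20) was not called. Hif1a, the hypoxia factor that the study followed in B cells, was 215, 198 and 219 CPM against 209, 234 and 211 CPM, the arms overlapped, and no change was detected (0.05 ± 0.08, adjusted p = 0.682), with the limit that it shares exon sequence with Gm49321. The study reported raised Hif1a in germinal center B cells, by qRT-PCR, and in Peyer's patch B cells of Btla-deficient mice. Those cells, the loss of Btla and the assay differ from the arms here. Of 9 tested hypoxia factors and oxygen sensors, Hif1a among them, none passed the test in edgeR, and their median was 0.05.

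Lipid genes split by function. Genes that export cholesterol and answer to the sterol-sensing receptor LXR were mostly higher, with a median of 0.47. Of 13 tested 7 were called higher (53.8%) and 1 lower (7.69%), against 11.9% and 17.5% of all genes. Apoe, the carrier apolipoprotein E, rose from 20.7, 31.4 and 27.1 to 72.2, 75.9 and 81.5 CPM (1.56 ± 0.12, adjusted p = 3e-07). Abca1, a cholesterol exporter, rose from 51.6, 51.9 and 50.9 to 151, 130.1 and 129 CPM (1.41 ± 0.07, adjusted p = 6.79e-09), and Abcg1 from 9.56, 9.91 and 10.2 to 22.8, 21.4 and 22.9 CPM (1.18 ± 0.09). The 3 genes showed no overlap between arms, and unstimulated cells held 88.6 CPM of Apoe and 158 CPM of Abca1. Mylip, which removes the LDL receptor, was higher by 0.96. Sterol and fatty acid synthesis genes moved down, with 20 of 26 lower (76.9%, against 17.5% of all genes), none higher and a median of −0.33, or 13 lower without replicate 3. Among those lower were Fdps (−0.65), Idi1 (−0.55), Fasn (−0.46) and Sqle (−0.45).

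Cell cycle genes fell in part, with the genes of the entry into S phase ahead in count. Ccnd2, the D-type cyclin that B cells use to leave the resting state, was 513, 487 and 495 CPM with CtrlIg and IFNb and 194, 213 and 200.4 CPM with anti-Btla and IFNb (−1.30 ± 0.06, adjusted p = 6.22e-09). All 3 anti-Btla libraries also lay below the unstimulated mean of 265 CPM. Its kinase Cdk6 (−0.71 ± 0.06), the ubiquitin ligase adaptor Dtl (−0.79 ± 0.09), Uhrf1, which maintains DNA methylation (−0.79 ± 0.08), the replicative helicase subunit Mcm3 (−0.52 ± 0.05) and the sliding clamp Pcna (−0.49 ± 0.06) fell. In all, 23 of 49 tested genes of G1/S and DNA replication were lower (46.9%) and 3 higher (6.12%), with a median of −0.26. Without replicate 3 the counts were 15 and 1. Mitosis genes had 8 of 27 lower (29.6%) and none higher, with a median of −0.32, and 4 lower without replicate 3 or without the replicate block. Among all genes tested 17.5% were lower and 11.9% higher. Top2a, the DNA topoisomerase of dividing cells, was 119, 84.8 and 91.9 against 83.8, 61.6 and 60.5 CPM (−0.52 ± 0.07). The proliferation marker Mki67 was 109.8, 72.6 and 82.2 against 95, 59.7 and 59.6 CPM (−0.32 ± 0.08), the arms overlapped, and the adjusted p was 0.0934 without replicate 3. The inhibitor Cdkn1a, a p53 target, fell from 13.8, 17.6 and 11.6 to 5.18, 6.94 and 5.35 CPM (−1.29 ± 0.13).

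Genes of the resting lymphocyte were the main group that rose. Of 28 tested resting and Foxo target genes 22 were higher and none lower, with a median of 0.42 and 27, 26 and 27 of them higher in the 3 pairs. Without replicate 3, 15 were higher. S1pr1, the receptor for the lipid that guides lymphocytes out of lymphoid organs, was 93.4, 101 and 104 CPM with CtrlIg and IFNb and 219.5, 258 and 254 CPM with anti-Btla and IFNb (1.29 ± 0.06, adjusted p = 6.14e-09), and 272 CPM in unstimulated cells. The complement regulator Cd55 rose from 373, 365 and 361 to 680.1, 659 and 679 CPM (0.88 ± 0.04, adjusted p = 6.14e-09). For both genes the lowest anti-Btla library was well above the highest CtrlIg library and below the unstimulated mean (838 CPM for Cd55). The chemokine receptor Cxcr4 (97.3, 98.8 and 80.3 to 184, 198 and 178 CPM, 1.02 ± 0.06), Pik3ip1, a brake on PI3 kinase (38.4, 41.1 and 38.5 to 71.5, 82.2 and 84.5 CPM, 1.01 ± 0.08), and the Foxo and p53 target Sesn1 (0.68) rose too. Bach2, a repressor of plasma cell genes, was not called (0.09).

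The largest increases, among called genes of at least 10 CPM, were in genes of mixed function. Rapgef4, a cAMP-activated exchange factor for Rap, rose from 16.4, 14 and 17.3 to 48.2, 45.9 and 55.2 CPM (1.64 ± 0.08, adjusted p = 6.79e-09). Pde2a, a phosphodiesterase that breaks down cAMP and cGMP, had the largest fitted increase above that level, from 35.5, 45.7 and 17 to 94.1, 110.5 and 118 CPM (1.73 ± 0.20, adjusted p = 7.81e-06), and it shares exon sequence with Gm45837. The CtrlIg libraries were tight for Rapgef4 and spread more than 2-fold for Pde2a, and neither gene overlapped between arms. Emb, an embigin of the cell surface, rose from 24.4, 24.1 and 23 to 59.5, 57.9 and 55.1 CPM (1.27 ± 0.07), Rflnb, a regulator of filamin, from 12.4, 12.9 and 13.1 to 26.9, 36.1 and 38.0 CPM (1.38 ± 0.10), and the kinase gene Map3k19 from 5.39, 5.33 and 7.26 to 14.7, 15.9 and 15.3 CPM (1.38 ± 0.12). Diras2 (1.24 ± 0.15), a small GTPase, Inhba (1.29 ± 0.21), the activin A subunit, Olfr545 (1.59 ± 0.21), an odorant receptor gene, and Crisp3 (1.27) completed the 12 with S1pr1, Apoe and Abca1. On the side of the decreases, Lrrc32, which carries latent TGF-beta on the cell surface, fell from 17.8, 19.1 and 16.8 to 6.9, 5.15 and 5.06 CPM (−1.65 ± 0.14), and the other 2 of the 12 not given elsewhere were Gm12355 (−1.69) and Gm48113 (−1.61, adjusted p = 0.0276), a call that was lost without replicate 3 (−1.04, adjusted p = 0.188) and without any single one of 4 of the 6 libraries (adjusted p 0.0644 to 0.14).

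Among B cell surface genes, the antigen receptor and its helpers were raised more often than lowered. Of 22 tested 14 were higher (63.6%) and 3 lower (13.6%), with a median of 0.23, against 11.9% and 17.5% of all genes. The lower count was 1 without replicate 1, replicate 3 or the CtrlIg with IFNb library of replicate 1, with effective length offsets or with only the arms compared. Fcer2a, the low-affinity IgE receptor CD23 of follicular B cells, rose from 136, 137 and 112 to 247, 247 and 239.8 CPM (0.93 ± 0.06), against 334 CPM in unstimulated cells. The proximal kinase Syk (0.54), the inhibitory lectin Cd22 (0.48), the complement receptor Cr2 (0.44), the signaling chain Cd79b (0.42), Ighd (0.42), the adaptor Bank1 (0.35) and Btk (0.33) rose, while the tetraspanin Cd81 fell (−0.52). Cd79a was not called (0.22). Among 22 B lineage and plasma cell factors 6 were higher (27.3%, against 11.9% of all genes) and 4 lower (18.2%, against 17.5% of all genes), with a median of 0.03. The higher count was 4 without replicate 2, without replicate 3 or without the CtrlIg with IFNb library of replicate 2. Ikzf3 (0.44) and Zbtb20 (0.50) rose and Xbp1, a plasma cell factor, fell (−0.39). For antigen presentation by MHC class II 3 of 12 genes were higher and none lower, with a median of 0.19, against 11.9% higher and 17.5% lower among all genes. The count higher was 5 without the CtrlIg with IFNb library of replicate 1, 6 without replicate 1, 5 without replicate 2, 5 with DESeq2 and 7 with no filter on low counts. The 3 were March1, the ubiquitin ligase that removes class II and Cd86 from the surface (139, 142 and 158 to 301, 334 and 321 CPM, 1.12 ± 0.05, adjusted p = 6.22e-09), H2-Ob, a subunit of the peptide loading inhibitor H2-O (262, 280.1 and 258 to 460.2, 516 and 504 CPM, 0.89 ± 0.05), and the class II transactivator Ciita (81.9, 64.3 and 72.3 to 125, 100 and 128 CPM, 0.69 ± 0.06). The class II chain H2-Aa (0.19) and the invariant chain Cd74 (0.27, adjusted p = 0.0539) were not called.

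Icosl and Btla itself rose. Icosl, the ligand with which B cells stimulate follicular helper T cells, was 92.8, 84 and 86.7 CPM with CtrlIg and IFNb and 176, 167 and 192 CPM with anti-Btla and IFNb (1.02 ± 0.05, adjusted p = 6.79e-09), and 289.8 CPM in unstimulated cells. Among 19 tested costimulatory and checkpoint genes 6 were higher (31.6%) and 4 lower (21.1%), with a median of −0.02, against 11.9% and 17.5% of all genes. Without replicate 3 the counts of this list were 3 and 0. The lower count was 2 without the CtrlIg with IFNb library of replicate 1 and 1 without the anti-Btla with IFNb library of replicate 3, and the higher count was 4 without replicate 1, the anti-Btla with IFNb library of replicate 1 or the replicate block. The adhesion receptor Pecam1 (0.48) and Siglecg (0.38) were among those higher. Cd86, a ligand of CD28, went from 91.5, 71.3 and 67.4 to 74.2, 60.6 and 46.6 CPM (−0.35), and this call was lost when the replicate 3 pair (adjusted p = 0.0974), the CtrlIg with IFNb library of replicate 1 (0.0734) or the anti-Btla with IFNb library of replicate 3 (0.0769) was left out. The transcript of the targeted receptor, Btla, was present in both arms, at 365, 358 and 389 CPM with CtrlIg and IFNb and 555, 564 and 549 CPM with anti-Btla and IFNb (0.58 ± 0.05, adjusted p = 3.84e-07), with 630.1 CPM in unstimulated cells. Its ligand Tnfrsf14 (Hvem) was 9.0, 7.52 and 8.08 CPM against 7.58, 8.96 and 7.77 CPM, with no change detected (−0.01 ± 0.15, adjusted p = 0.986). Among the signaling partners of Btla the lipid phosphatase Inpp5d (Ship1) rose by 0.52, and Ptpn6 was not called (−0.08). Of these 12 genes 4 were higher (33.3%) and 1 lower (8.33%), with a median of 0.16. The gene called lower, Ptpn11 (Shp2), was lost without 4 of the 6 libraries in turn (log2 change −0.18 to −0.22, adjusted p 0.0627 to 0.116 in edgeR).

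Survival genes held a few clear decreases. Bcl2l1, which encodes the survival protein Bcl-xL, fell from 16.1, 17.4 and 16 to 8.45, 8.26 and 8.51 CPM (−0.97 ± 0.08). The related Bcl2a1d (−0.91) and Bcl2a1b (−0.81) are near-identical copies among which reads are shared, so their values are uncertain. Mcl1 was not called (0.06), and of 15 Bcl2 family genes tested 1 was higher (6.67%, against 11.9% of all genes) and 8 lower, with a median of −0.22. The lower count was 5 without the CtrlIg with IFNb library of replicate 2 or with effective length offsets and 4 without replicate 3, and the higher count was 0 without the anti-Btla with IFNb library of replicate 1, without replicate 1 or 3 and without the replicate block. In the NF-kB list 3 of 21 genes were higher (14.3%, against 11.9% of all genes) and 8 lower, with a median of −0.09. The lower count was 5 without the CtrlIg with IFNb library of replicate 2, the anti-Btla with IFNb library of replicate 3 or replicate 2, 4 without replicate 3 and 5 with effective length offsets. Targets and feedback genes such as Traf1 (−0.61), Nfkbib (−0.55), Tnfaip3 (−0.47) and Nfkb1 (−0.40) fell, whereas Malt1, a protease of antigen receptor signaling, rose (0.34) and Rela was not called (−0.07). In the unfolded protein response 20 of 26 genes were lower and none higher, with a median of −0.39, including the chaperone Hspa5, or BiP, from 436, 448 and 403 to 337, 278 and 241 CPM (−0.60), Hyou1 (−0.56) and Pdia6 (−0.54). Ezh2, the histone H3 lysine 27 methyltransferase of germinal center B cells, fell from 210.2, 189 and 218 to 123, 107 and 100 CPM (−0.90 ± 0.07, adjusted p = 4.07e-07), against 85.5 CPM in unstimulated cells. Of 12 Polycomb and DNA methylation genes 2 were higher (16.7%, 0 without replicate 3) and 5 lower (41.7%, 3 with effective length offsets). Their median was −0.10, and the Polycomb subunit Rbbp7 was among those lower (−0.52). The 4 genes that the study singled out in B cells, Ezh2, Il6, Ldha and Myc, were all lower with a median of −0.96, but the study chose them on samples of this series, so this count is not independent evidence.

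Interferon-stimulated genes varied with the replicate in every arm. The 55 tested members summed to 6620, 4793 and 4104 CPM with CtrlIg and IFNb and to 5535, 4868 and 4672 CPM with anti-Btla and IFNb. In both arms replicate 1 held the highest value for most of them, 53 members with CtrlIg and IFNb and 50 with anti-Btla and IFNb. The same was true of unstimulated cells (50) and of the arms without IFNb (53 with CtrlIg and 50 with anti-Btla), and 45 members were highest in replicate 1 in all 5 arms. With anti-Btla and IFNb 2 members were higher and 16 lower, with a median of −0.32, but the per-pair medians were −0.63, −0.17 and 0.14, and 51, 35 and 20 of 55 were lower in pairs 1, 2 and 3. Without replicate 1 the counts were 6 higher and 5 lower with a median of −0.03, without the CtrlIg and IFNb library of replicate 1 they were 5 and 5 with a median of −0.02, and without the replicate block 1 and 3 with a median of −0.40. The count of lower members was 7 when the CtrlIg with IFNb library of replicate 2 or the anti-Btla with IFNb library of replicate 1 was left out, 9 without the anti-Btla with IFNb library of replicate 3 and 10 without replicate 2. Gbp2, an interferon-induced GTPase, was lower in every anti-Btla library than in any CtrlIg library (137, 92.8 and 93.1 to 67.9, 50.9 and 40.3 CPM, −1.03 ± 0.10), and Bst2, or tetherin, was likewise apart (16.1, 13.8 and 8.61 to 8.17, 5.47 and 5.11 CPM, −1.04 ± 0.19). Isg15, an antiviral ubiquitin-like protein, was 13.4, 4.32 and 3.44 CPM against 4.28, 3.52 and 4.0 CPM, and Ifit1, a sensor of viral RNA, 13.7, 2.71 and 1.5 CPM against 4.04, 1.92 and 1.69 CPM. Both were high in a single CtrlIg library and were not called. Samhd1, a dNTPase, was called higher (842, 663 and 606 to 1016, 851 and 836 CPM, 0.36), though the arms overlapped and without the replicate block the adjusted p was 0.06.

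No rise of the interferon-stimulated genes with IFNb passed the test. Between CtrlIg with IFNb and CtrlIg without it, 0 of 16635 genes (0.0%) were called by edgeR and 7 by DESeq2. In edgeR 607 genes had an unadjusted p under 0.05, a share below 0.05. Of the 55 interferon-stimulated genes 50 had a higher fitted value with IFNb, their median was 0.18 against −0.007 for all genes tested, 8 reached an unadjusted p under 0.05, all of them higher, and for 47 the 95% interval ended below a log2 change of 1. Ifit1 was 0.87 ± 0.34 higher (95% interval 0.14 to 1.59), Mx1, a GTPase that blocks influenza virus, 0.51 ± 0.20 (0.09 to 0.92), and Isg15 0.41 ± 0.32 (−0.28 to 1.09), with adjusted p-values of 1.0. On anti-Btla beads IFNb again gave 0 called genes (0.0%) in edgeR and 4 in DESeq2. In edgeR 382 genes had an unadjusted p under 0.05, again a share below 0.05. The 55 members had a median of 0.0 with 28 higher, none at an unadjusted p under 0.05, and 51 intervals ending below 1. These IFNb comparisons share libraries with the anti-Btla comparison and are given only beside it. Of 23 genes of interferon receptors and signaling, anti-Btla with IFNb raised 6 (26.1%) and lowered 4 (17.4%), with a median of −0.04. Over all genes tested it raised 11.9% and lowered 17.5%. The counts of this list were 3 and 4 without replicate 2, and 2 and 2 without replicate 3. Its genes called higher included Jak1, the kinase bound to Ifnar2 (0.36), and Ifngr1 (0.43). Those called lower included the feedback inhibitor Cish (7.01, 6.18 and 6.06 to 1.79, 1.54 and 1.92 CPM, −1.88 ± 0.21) and Stat3 (−0.39). In MHC class I presentation 2 of 15 genes (13.3%) were higher and 5 (33.3%) lower, with a median of −0.16. These counts turned on single libraries. The lower count was 2 without the CtrlIg with IFNb library of replicate 2, without the anti-Btla with IFNb library of replicate 1 or without replicate 1, and 3 without the CtrlIg with IFNb library of replicate 1 or without replicate 3. It was 1 with effective length offsets, and without the replicate block the counts were 0 higher and 2 lower. The higher count was 1 without replicate 1 or any single library other than the CtrlIg with IFNb library of replicate 2, 3 without replicate 2, and 0 without replicate 3 or with only the arms compared.

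**Figure D3:**
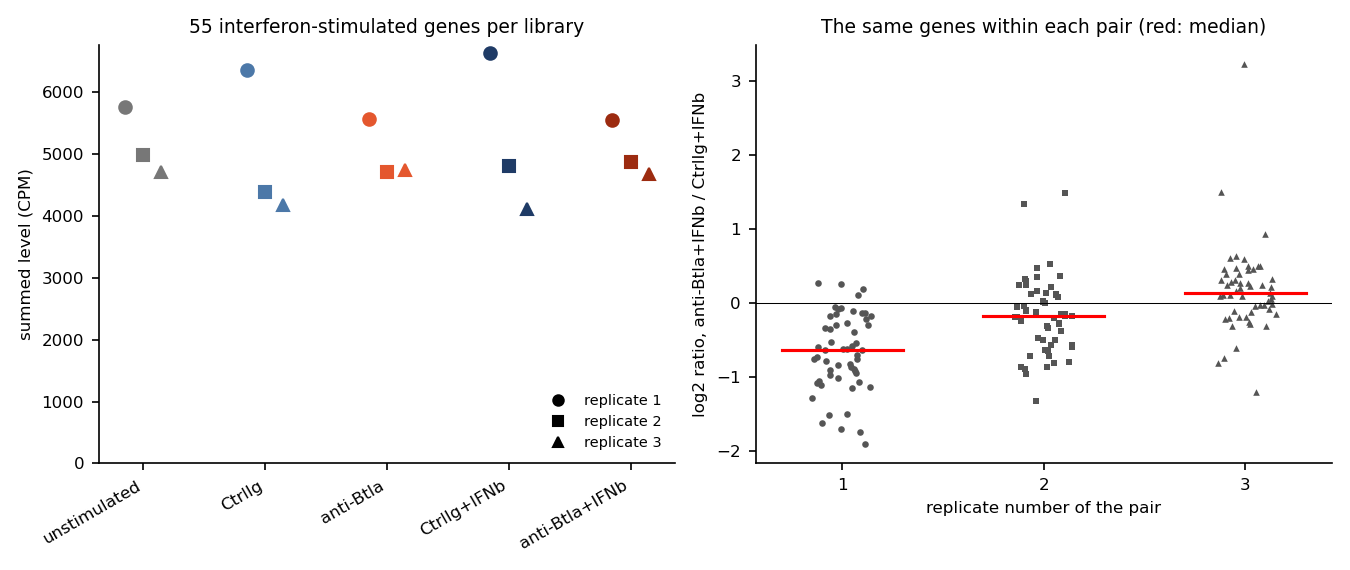
Left, the summed CPM (y axis) of 55 interferon-stimulated genes in each library of the 5 naive B cell arms (x axis), with the replicate number as point shape. Right, the log2 ratio (y axis, 0.1 CPM added) of anti-Btla with IFNb to CtrlIg with IFNb for each of the 55 genes in the 3 same-numbered pairs (x axis), with red lines at the medians of −0.63, −0.17 and 0.14, so the genes lie mostly below 0 in pair 1 and on both sides in pair 3.

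Set beside the same antibody without IFNb, no gene differed by the test of the difference. Anti-Btla without IFNb called 5456 of 16635 genes (32.8%), and 1456 genes were higher and 2529 lower in both comparisons, which is 81.3% of the genes called with IFNb and 73.0% of those called without, and none was called in opposite directions. Over all 16635 genes the changes had a Spearman rho of 0.67, a description across genes, which are not independent replicates, and the comparisons share no library but share replicate numbers. A test of the difference between the effects called 0 genes (0.0%) in edgeR, with a smallest adjusted p of 0.311. At an unadjusted p under 0.05 there were 566 of the 16635 genes, a share below 0.05. DESeq2, run without the edgeR filter on low counts, called 8. They included Gm7324 (4.07), and Rpl18-ps1 (−39.88) and Gm10175 (33.44), whose fitted log2 differences were far beyond the range in edgeR (−12.03 to 13.91). Since no rise of an interferon-stimulated gene passed the test, whether the IFNb was active in these cells at 18 h cannot be told from these libraries, and a difference of 0 genes holds only for the arms as labelled. Among the 4900 called genes the 95% interval of the difference lay within 1.5-fold for 4160 (84.9%), with a median SE of 0.11. The change of Myc with IFNb differed from that without by 0.02 (−0.18 to 0.22), that of Ldha by 0.02 (−0.14 to 0.18), that of Il6 by −0.16 (−0.51 to 0.19), that of S1pr1 by −0.04 (−0.22 to 0.13) and that of Btla by 0.01 (−0.13 to 0.15). The interval of Il6 was wider than those of Btla and Ldha. The genes with the smallest unadjusted p, at 10 CPM or more, were led by Lifr, the receptor of leukemia inhibitory factor, which rose with IFNb from 16.4, 10.6 and 9.58 to 29.4, 21.2 and 18.7 CPM (0.93, against 0.34 without, difference 0.59, 0.33 to 0.85; the call of the increase itself was lost with effective length offsets, 0.63 at an adjusted p of 0.0949), and in the other direction by Cpne1, a calcium-dependent lipid-binding protein (44.6, 40.4 and 24.3 to 43.7, 40.5 and 43.4 CPM, 0.21 against 1.27, difference −1.07, −1.55 to −0.58). Cpne1 shares same-strand exon sequence with Gm28036 and Rbm12, so its reads cannot be told apart from theirs with certainty, and Gm28036, named here after its values were seen, differed the other way (0.69, adjusted p = 0.0022) with no filter on low counts. Both missed the adjusted threshold (adjusted p = 1.0 in edgeR), but Cpne1 passed it without the CtrlIg with IFNb library of replicate 3 (−1.30, adjusted p = 0.033), without replicate 3 (−1.46, adjusted p = 0.0494) and with no filter on low counts (−1.06, adjusted p = 2.95e-05).

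**Figure D4:**
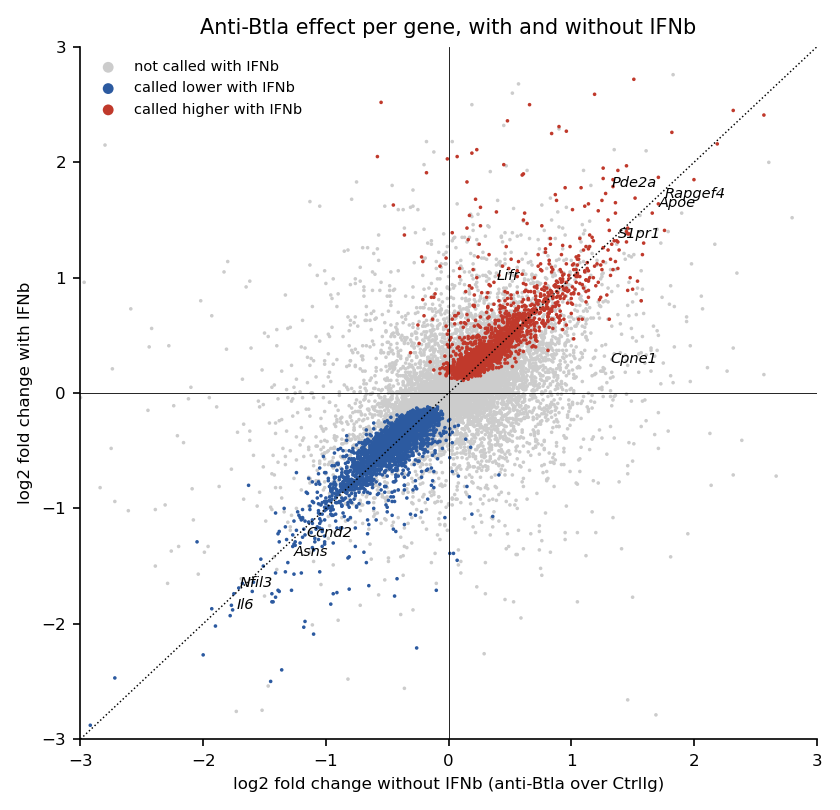
The log2 change with anti-Btla in the presence of IFNb (y axis) against that without IFNb (x axis) for each tested gene of naive B cells, coloured by its call with IFNb, with both axes ending at 3 and 85 genes beyond not drawn. Genes called in both comparisons (1456 higher and 2529 lower) lie at the upper right and the lower left, and none lies at the upper left or lower right.

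In B cells of immunized mice most genes called in naive cells were called in the same direction, but a few lists had other counts. With IFNb, anti-Btla called 5268 of 17007 genes (31.0%) in EAE B cells, 2309 higher and 2959 lower, or 2794 in all without the replicate block. In both naive and EAE cells 1413 genes were higher and 2348 lower, with none opposite. These were 76.9% of the naive and 71.6% of the EAE genes that could be compared. The median size of the change among genes called in both was 0.44 in naive and 0.48 in EAE cells. A test of the difference called 0 of 17341 genes (0.0%) in edgeR, 687 at an unadjusted p under 0.05 (a share below 0.05), and 3 in DESeq2. For 4091 of the 4900 genes called in naive cells (83.5%) its 95% interval lay within 1.5-fold. Interferon-stimulated genes had 12 of 55 higher and 3 lower in EAE cells (median 0.09), against 2 and 16 in naive cells (median −0.32), and MHC class II genes 10 of 12 higher (median 0.49), against 3 (median 0.19). Mitosis genes had 18 of 27 lower in EAE cells against 8, and no member of these lists passed the test of the difference. The EAE list counts were taken under the main settings alone. The naive counts of these lists changed when libraries were left out, as given above. Il6 changed by −1.69 in EAE cells, 0.23 above naive cells (−0.11 to 0.57), and Ccnd2 by −1.24 (difference 0.05, −0.17 to 0.27). For Egr2 the values were −1.57 in EAE and −1.20 in naive cells (difference −0.38, −0.69 to −0.07, unadjusted p = 0.0182 and adjusted p = 1.0 in edgeR). Emb (1.27 in naive against 0.64 in EAE cells), Cd69 (−0.01 against −0.47) and Mki67 (−0.32 against −0.72) were among the 5 genes with the smallest unadjusted p for a lower value in EAE cells, and none passed the adjusted threshold.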

How the data were processed

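RNA of purified B cells was sequenced by the study on an Illumina instrument. The authors assigned reads to transcripts with Salmon and deposited 1 table per sample with estimated counts (NumReads) and TPM per transcript. Per the submitters' processing notes the build was GRCm38 and the tools were Salmon and DESeq2, whose versions they leave out. For the library kit and the strand setting nothing is given in the sources used here. The deposited TPM values, which are scaled within a library, were not themselves tested. In the tests they served only to weight transcript lengths for the effective length offsets.

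Expected counts were summed over the transcripts of a gene (GENCODE M21, 35498 genes) and rounded to whole numbers. Transcripts without a gene held 0.166 to 0.201% of the counts of a naive B cell library and were left out. The spread between replicates far exceeded counting error (chi-square per degree of freedom 7.565 to 20.87), so each library was counted as a replicate of its own. Reads are not independent molecules. The labels do not say whether replicates came from separate mice, though the study's heatmap numbers them as mice, and if they did not, the spread that the p-values rest on is technical. The 37 deposited tables of T cells were not analysed here.

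Libraries were grouped by their labels. The edgeR quasi-likelihood F-test (version 4.0.16, R 4.3.3) was fitted over the 15 naive B cell libraries with TMM scaling, the replicate number as a block and low genes removed by filterByExpr (minimum count 10). A gene passed where its p, adjusted by Benjamini-Hochberg over all genes tested, was below 0.05. The log2 change and the F statistic gave the SE, and 95% intervals use the total degrees of freedom of edgeR (residual plus prior). CPM values are scaled by TMM. EAE B cells were fitted alike, and the difference between naive and EAE effects in 30 libraries. In all 7 comparisons were tested. The block follows the rule by which the 6 libraries were taken. That heatmap uses the numbers 1 to 3 in both arms. Deviations from arm means correlated at a median of 0.286 between same-numbered libraries (lowest −0.0721, 25 of 30 pairs above 0.1) and −0.127 between others, and at 0.131, 0.0472 and 0.337 in the 3 pairs compared.

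Alternatives were DESeq2 1.42.0, its size factors, offsets for the effective transcript length, no filter on low counts, no replicate block, only the arms compared, a stricter adjusted p and leaving out libraries. Only the main edgeR fit was tried on simulated counts, with equal numbers of genes raised and lowered and no replicate effect. That trial cannot check the scaling or the replicate block under the unequal calls of these data. Sequences are from RefSeq (GRCm38.p6). Python 3.11.15, pandas 2.3.3 and matplotlib 3.10.9 made the tables and plots. The samples, the 34 gene lists (28 of pathways and functions, 6 of cell markers) and the rules were chosen with earlier results of these data known. Named genes were, among called genes of at least 10 CPM that moved alike in 3 of 3 pairs, the 12 that rose most and the 12 that fell most, then up to 6 members per list by smallest p, all members of lists of 25 or fewer and of the interferon lists, Btla, Tnfrsf14, Hif1a and the study's B cell genes, and 5 genes per direction for each test of a difference. Of 403 named genes 17 overlap an exon of another same-strand gene and 55 one of an opposite-strand gene, and 7 are not protein-coding. A few listed genes are not reported here.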

Additional observations from a re-analysis of the deposited data

How the results depend on the processing

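The count of 4900 genes called with anti-Btla and IFNb was 3284 to 4870 under a stricter adjusted p of 0.01 (3284), effective length offsets (3664), only the arms compared (4004), no filter on low counts (4758), DESeq2 (4825) and its size factors (4870). Leaving out libraries gave 2517 to 4281, and the lowest value was without replicate 3. In the fit without the replicate block, which pairs no libraries, 4167 genes were called, and in EAE B cells 2794 of 5268. The difference between effects with and without IFNb, where edgeR called 0 genes, gave 8 with DESeq2, 21 with no filter on low counts and 0 to 1 when libraries were left out. That 1 gene was Cpne1 without replicate 3 or without the CtrlIg with IFNb library of replicate 3, Gm7324 without replicate 1 and Gm10175 without the anti-Btla with IFNb library of replicate 2. The difference between EAE and naive effects gave 3 with DESeq2, 3 with no filter and 0 to 1 with libraries left out (Gm10175, without the anti-Btla with IFNb library of replicate 2). IFNb called 7 genes with DESeq2, 13 with no filter and 1 with only the arms compared on CtrlIg beads, and 4, 10 and 1 on anti-Btla beads. DESeq2 was run without the edgeR filter on low counts. Apart from Gm7324 and Rpl17-ps10, every gene it called in the tests of a difference or of IFNb had a fitted log2 value far beyond the range in edgeR. Cpne1 apart, the genes that gave a call only in these alternative fits were chosen after their values were seen. Of 403 named genes, 246 were called and 171 kept the call under every setting. Over 6025 pairs of a gene and a setting 355 lost a call, 75 gained one and 3 turned direction, all with effective length offsets (Ahrr 0.07, Max 0.15 and Nfkbiz 0.27). The cause of these shifts was not tested. Counts of 13.6 M in the shallowest library limit what can be said of genes below a few CPM.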
